A study of Drosophila melanogaster with 3 samples.

Results

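The 138 genes described here are long non-coding RNAs (lncRNAs) of 3 fly neuron types, LPLC2, LPLC1 and LC4. They are the genes annotated as lncRNA for which 1 or more unique molecular identifiers (UMIs, each a counted RNA molecule) were found in 10% or more of the cells of at least 1 annotated class at 1 stage. The dosage compensation RNAs roX1 and roX2 were left out. The members are 138 of the 1918 lncRNA genes and of the 17824 genes in the count tables, and 1337 lncRNA genes other than roX1 and roX2 had any UMI. Of the 138, 121 reached 10% in LPLC2, LPLC1 or LC4, and 17 did so only among cells that the authors' annotation calls X.

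Single-cell transcriptomes were collected from LPLC2, LPLC1 and LC4 at 48, 72 and 96 h after puparium formation (APF), in 1 library for each stage. These types are visual projection neurons of the optic lobe that respond to looming or moving objects. Each cross joined a split-GAL4 driver line for LPLC2, LPLC1 or LC4, carried by the mothers, with a nuclear GFP reporter and the third chromosome of 1 wild-derived DGRP strain (Drosophila Genetic Reference Panel), carried by the fathers. All groups therefore share the reporter and differ in driver, strain and stage, and no group received a treatment. Each type was labelled by its own driver line, so type and the maternal background of that line cannot be told apart. This holds for every comparison of types below. Males and females were pooled within a cross, GFP-positive cells were sorted from pooled animals, and variants on the third chromosome assigned each cell to its cross. The crosses carried strains 399, 535, 555, 730, 799 and 805 at 48 h APF. At 72 and 96 h APF strain 320 took the place of strain 555, and LC4 lacked strains 320 and 730. Strains 320, 399, 535 and 555 were collected first and were slightly older than strains 730, 799 and 805, so that strain and age cannot be told apart within a stage. A driver labels whatever cells it is active in, and the types are names that the authors gave to clusters of these cells.

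The libraries of 48, 72 and 96 h APF held 2595, 2369 and 1039 final cells with 50475870, 53123858 and 18900544 UMIs. Stage and library are the same split, and the 48 h library was sequenced with other read lengths, so stage and library cannot be told apart. UMIs were summed over the cells of each cross, type and stage into 50 sums of 12 to 364 cells and 253805 to 7041162 UMIs, and the cross is the replicate (n = 6, and n = 4 for LC4 at 72 and 96 h APF). Levels are given as UMIs per 1000000 UMIs of a sum (CPM). In a sum, fewer cells with an RNA and fewer molecules of it per cell cannot be told apart. A 3′ library tags each RNA once, so these levels were not divided by length. The sums with the fewest cells were LC4 at 48 h APF in strains 555 (12 cells) and 399 (14 cells) and LPLC1 at 96 h APF in strain 805 (14 cells). The 3 stages shared 2, 1 and 5 cell barcodes. The markers of LC4 (kn, lov and Lim3) added up to at most 4.76 CPM in LPLC2 and LPLC1 and to 781 to 1702 CPM in LC4. The other lists were shared between types. Markers of LPLC2 (Lim1, Sox102F, salm and salr) added up to 2036 CPM in LPLC2 and 1852 CPM in LPLC1 at 96 h APF. Those of LPLC1 (br and tup) added up to 5115 CPM in LPLC1 and 3260 CPM in LC4 at 48 h APF, against 27.9 CPM in LPLC2. Markers of glia, haemocytes, neuroblasts and photoreceptors added up to at most 16.8 CPM in the 3 types. When the cells were clustered again without any lncRNA, 100% of the cells fell into the same type, so the lncRNAs did not decide the type of a cell.

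An lncRNA is a transcript without a long open reading frame, and its RNA, or the act of transcribing it, can take part in regulating other genes, in organising nuclear bodies or in giving rise to small RNAs. Several members have such roles. Hsromega, the heat shock RNA omega, gathers RNA-binding proteins in the omega speckles of the nucleus, let7C is the primary transcript of the let-7 microRNA and its cluster neighbours, which act in the timing of metamorphosis, and cherub is an RNA that dividing neuroblasts pass on unequally. The alphagamma-element is transcribed from a heat shock locus that also holds Hsp70 genes. Most members carry only a CR number, and no role is given for them here.

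Detection chose the members and is therefore a description. Between 62 and 74 members reached 10% of the cells in each of the 9 groups of type and stage, 30 members did so in all 9 groups, and 19 did so in 1 group. Hsromega, noe, CR31451, CR42862 and CR34335 were found in 100% of the cells of at least 1 group. Just inside the limit was CR45910 with 10.1% of the LPLC2 cells at 48 h APF, and just outside it were CR43830 and CR45179 with 9.93% of the LC4 cells at 72 h APF.

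By position the members lay on every large arm. In the Ensembl annotation of the Release 6 assembly, 25 of the 138 were on 2L, 19 on 2R, 34 on 3L, 24 on 3R, 2 on 4 and 34 on X. Of 1908 lncRNA genes with a position, 235 were on X. The members were longer than lncRNA genes as a whole, with a median exonic length of 1044 bases against 616.5 bases. A total of 83 members lay between protein-coding genes, 20 overlapped one on the opposite strand and 35 overlapped one on the same strand, 16 of them in exons. Among the members without a same-strand overlap, 19 began within 5000 bases downstream of a coding gene on the same strand. Whether reads of a gene and of a member that overlaps it were separated is not given in the sources used here, and levels of such members are uncertain.

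A single RNA made up most of the lncRNA signal. All members together took 7.27% ± 0.42, 10.4% ± 0.75 and 9.68% ± 0.51 of the UMIs of LPLC2 at 48, 72 and 96 h APF (SD over crosses). In LPLC1 they took 6.30% ± 0.73, 8.48% ± 0.46 and 7.86% ± 0.83, and in LC4 8.13% ± 1.55, 10.7% ± 0.41 and 8.33% ± 0.83. Within these totals noe alone held between 4.87% (LPLC1 at 48 h APF) and 9.27% (LC4 at 72 h APF) of all UMIs, and it was the most abundant of all genes in each of the 9 groups. The other members together held 1.23% to 2.59%, with the higher shares at 96 h APF in each type.

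The gene noe lies on the minus strand at chr3L:17400272-17401348, inside an intron of blot, with which its levels showed no relation over the 50 sums (Spearman's rho 0.03). Its level peaked at 72 h APF in every type. In LPLC2 noe had a lowest, median and highest cross of 54891, 55845 and 62931 CPM at 48 h APF, 72579, 89137 and 92863 CPM at 72 h APF, and 64194, 71257 and 78272 CPM at 96 h APF. Its 72 h values were thus above the 48 h values in every LPLC2 cross. The log2 fold change at 72 h over 48 h APF was 0.64 in LPLC2 (SE 0.11, adjusted p = 5.1e-07), 0.66 in LPLC1 and 0.51 in LC4. At 96 h over 72 h APF noe fell by 0.43, 0.49 and 0.79 on the log2 scale in LPLC2, LPLC1 and LC4. Among the types noe was lowest in LPLC1 at 48 h APF (log2 fold change -0.57 against LC4, SE 0.11, adjusted p = 1.7e-05), with overlapping crosses.

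CR34335 (chrX:3545750-3546110, minus strand) lies inside DIP-alpha, a gene for a cell surface receptor of the immunoglobulin superfamily, and its level ran weakly against that of DIP-alpha (rho -0.34). It rose late. In LPLC2 its crosses lay between 2859 and 4076 CPM at 48 h APF, between 3219 and 5301 CPM at 72 h APF and between 9312 and 13945 CPM at 96 h APF. No cross at 96 h APF overlapped the earlier stages in LPLC2. The log2 fold change at 96 h over 72 h APF was 1.29 in LPLC2, 0.95 in LPLC1 and 1.22 in LC4 (SE 0.12, 0.12 and 0.15, adjusted p = 2.2e-13, 2.3e-09 and 7.1e-10). LPLC1 held less of it than the other types at 96 h APF, with 5397 ± 1093 CPM (SD, n = 6) against 13531 ± 1568 CPM in LC4 (n = 4, log2 fold change -1.45).

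CR31451 and CR42862 were the other members found in nearly every cell. CR31451 (chr3R:23983503-23985065, plus strand) starts 271 bases downstream of CG31140. Its crosses in LPLC2 lay between 1693 and 1896 CPM at 48 h APF, 2944 and 3655 CPM at 72 h APF, and 4936 and 5427 CPM at 96 h APF, so that the 3 stages did not overlap. The 4 LC4 crosses at 96 h APF had 584, 858, 951 and 988 CPM. The gap between LPLC2 and LC4 widened with stage, with log2 fold changes of 0.77, 1.53 and 2.48 (SE 0.08, 0.09 and 0.09). CR42862 (chr3L:224106-230964), which shares exon sequence with CG33229, rose between 72 and 96 h APF by log2 fold changes of 0.29 in LPLC2, 0.82 in LPLC1 and 1.52 in LC4 (adjusted p = 1.2e-03, 8.3e-13 and 3.1e-19).

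Differences between types came next. Of the 138 members 122 had enough UMIs to be tested, in 1 fit with all 7011 genes tested. A member detected in 1 type only had to differ between types, so the counts over members are descriptions. At 48 h APF 51 of 122 members differed between LPLC2 and LPLC1 at an adjusted p of 0.05, against 33.6% of all genes tested. Of these 28 were higher in LPLC2 (15.4% of all genes) and 23 lower (18.2%). Between LPLC2 and LC4 65 differed (52.4% of all genes), 44 higher (25.6%) and 21 lower (26.8%) in LPLC2. Between LPLC1 and LC4 59 differed (37.5%), 38 higher (18.6%) and 21 lower (18.9%) in LPLC1. Called members were thus more often above LC4 than below it. A member could be chosen through LPLC2 or LPLC1 without LC4, so the choice itself can favour this direction, and no conclusion is drawn from it. At 72 h APF 60 differed between LPLC2 and LPLC1 (35.4%), 31 higher (16.5%) and 29 lower (18.9%), and 79 between LPLC2 and LC4 (58.7%), 54 higher (28.3%) and 25 lower (30.4%). Between LPLC1 and LC4 84 differed (50%), 57 higher (25.1%) and 27 lower (25%). At 96 h APF 44 differed between LPLC2 and LPLC1 (26.5%), 27 higher (16.2%) and 17 lower (10.2%). Against LC4 72 differed from LPLC2 (49.6%), 43 higher (27.1%) and 29 lower (22.5%) in LPLC2, and 65 from LPLC1 (37.9%), 38 higher (18.4%) and 27 lower (19.4%) in LPLC1. The count of 44 dropped to 29 when strain 799 was left out. Against LC4 the median log2 fold change of the tested members was above that of all genes at every stage, and was largest for LPLC1 at 72 h APF (0.53 for members, -0.02 for all genes). The choice of members bears on these medians as well.

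A member was called type-specific where it differed in the same direction by 4-fold or more from both other types at a stage. At 48, 72 and 96 h APF 5, 6 and 5 members were high in LPLC2 (1.41%, 2.18% and 2.11% of all genes), 6, 7 and 4 in LPLC1 (0.77%, 1.04% and 1.01%) and 7, 5 and 8 in LC4 (1.33%, 1.1% and 1.6%). Low members numbered 5, 4 and 2 in LPLC2 (1.61%, 1.18% and 0.998%), 1, 0 and 4 in LPLC1 (0.456%, 0.485% and 0.599%) and 6, 16 and 19 in LC4 (1.14%, 2.61% and 3.07%). LC4 thus had more low members than either other type at 72 and 96 h APF, and it also had the largest share of low genes among all genes at both stages. Since these members were chosen by their folds, the values that follow for them are descriptions of the types, with no p.

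**Figure D1:**
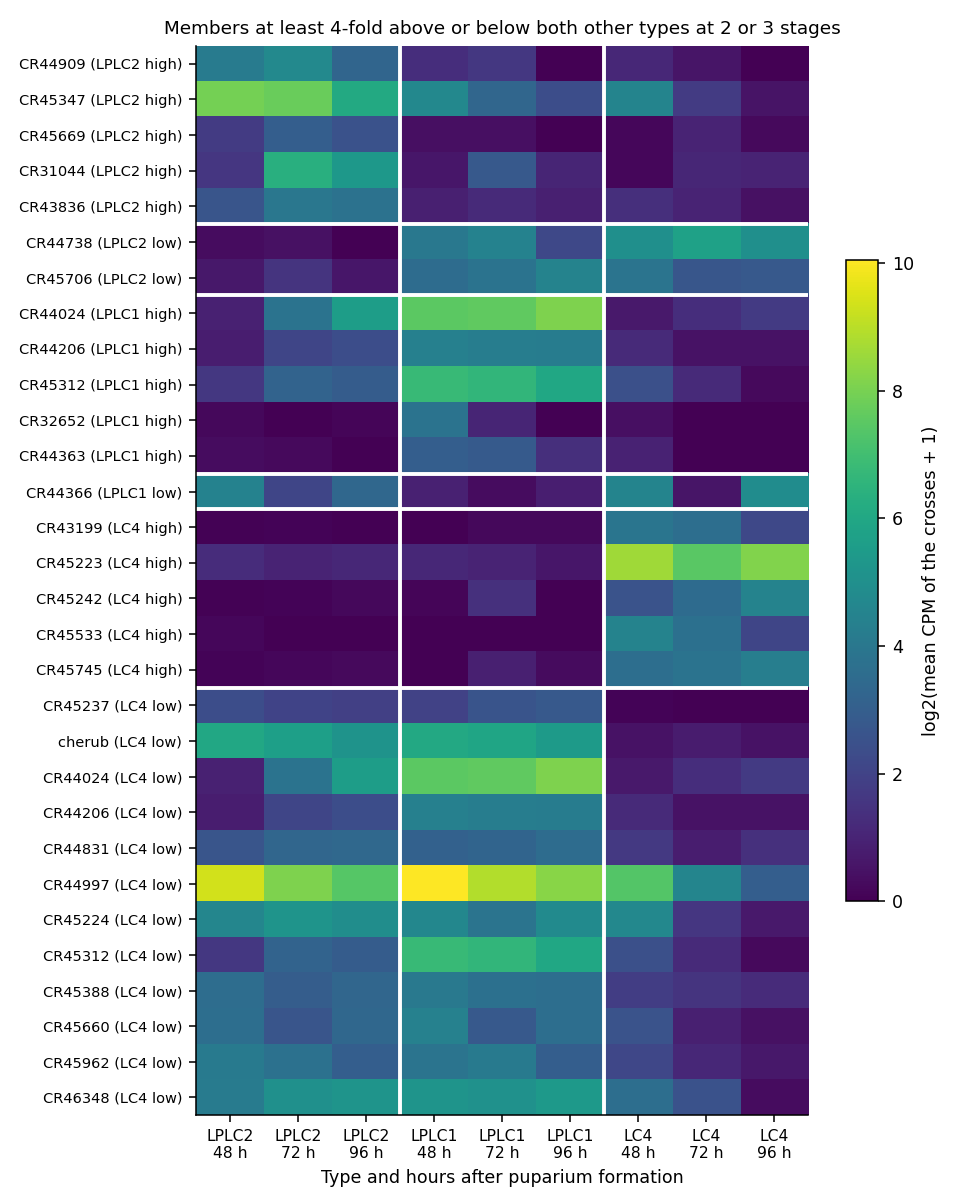
Mean levels of the members that were type-specific at 2 or 3 stages, as log2(CPM + 1), in the 9 groups of type and stage. The 30 lines are grouped by the type in which the member was high or low. The blocks of LPLC2, LPLC1 and LC4 members each stand out in 1 type, and CR44024, CR44206 and CR45312 appear in both the LPLC1-high and the LC4-low block.

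The members high in LPLC2 at all 3 stages were CR45347, CR44909 and CR45669. CR45347 (chr2L:20562247-20575720, plus strand) lies between genes. In LPLC2 its lowest, median and highest crosses were 220, 249 and 275 CPM at 48 h APF, 199, 213 and 229 CPM at 72 h APF, and 49.0, 67.9 and 86.0 CPM at 96 h APF. No cross of LPLC1 was above 29.1 CPM and none of LC4 above 27.9 CPM at any stage, so the types did not overlap. The log2 fold changes were 3.36, 4.46 and 3.97 against LPLC1 (SE 0.12, 0.14 and 0.25) and 3.40 and 6.26 against LC4 at 48 and 72 h APF. At 96 h APF LPLC2 had 545 UMIs of CR45347 and LC4 2, a ratio of 166 between levels (95% counting interval 45.7 to 1374).

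CR44909 (chr2L:20583656-20626206, minus strand) lies on the opposite strand from CR45347, with 7936 bases between the 3′ ends of both genes, and overlaps CG31677. It averaged 17.3, 25.2 and 8.80 CPM in LPLC2 at 48, 72 and 96 h APF. LPLC1 and LC4 had at most 2.09 CPM, and at 96 h APF had no UMI of CR44909 against 67 in LPLC2, which makes LPLC2 at least 11.2-fold higher than LPLC1 and at least 13.6-fold higher than LC4 (a floor of 3 counts over the group). Over the 50 sums the pair had a rho of 0.87. CR45669 (chr3R:28970541-28972750, plus strand) lies 169 bases from DIP-gamma, another gene of the DIP family, and averaged 2.36, 7.01 and 4.76 CPM in LPLC2 but at most 0.989 CPM elsewhere. Its level went with that of DIP-gamma (rho 0.80 over the 50 sums, which share libraries and types).

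Other LPLC2 members came and went with stage. CR31044 (chr3R:29214562-29219667) averaged 2.02, 79.3 and 39.6 CPM in LPLC2, against 0.539, 5.99 and 1.03 CPM in LPLC1 and 0.143, 1.12 and 0.996 CPM in LC4. The LPLC2 crosses of CR31044 at 72 h APF lay between 59.2 and 88.8 CPM, far above the highest LPLC1 cross of 10.3 CPM. CR43836 was high in LPLC2 at 72 and 96 h APF (14.9 and 12.8 CPM). CR44663 and CR45284 were high at 48 h APF only, with 33.6 and 21.4 CPM in LPLC2, and at 96 h APF CR44663 had no UMI in any type.

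In LPLC1 the members high at all stages were CR44024, CR44206 and CR45312. CR44024 (chr4:427331-431769, plus strand) is 1 of 2 members on chromosome 4. LPLC2 was at 0.901 CPM at 48 h APF but at 13.1 and 47.4 CPM at 72 and 96 h APF. In LPLC1 its lowest, median and highest crosses were 159, 182 and 198 CPM at 48 h APF, 176, 186 and 216 CPM at 72 h APF, and 217, 267 and 364 CPM at 96 h APF. LC4 stayed at or below 3.82 CPM. Cross levels of LPLC2 and LC4 stayed below those of LPLC1, and the log2 fold change of LPLC2 against LPLC1 shrank in size through -7.44, -3.88 and -2.52. CR45312 (chr2R:13361825-13362835) had at most 8.23 CPM in LPLC2, 109, 97.4 and 61.5 CPM in LPLC1, and at most 4.49 CPM in LC4. CR44206 (chr2R:13329352-13344808), on the same strand of the same region, had at most 4.15 CPM in LPLC2, 19.6, 18.3 and 17.7 CPM in LPLC1, and at most 1.28 CPM in LC4. Over the 9 group means CR44206 and CR45312 were most like each other (Pearson's r 0.98) and like dati, a zinc finger gene (0.97 and 0.96). CR44024 was most like the dopamine receptor gene Dop2R (0.98). The likest genes were picked from all 7011 tested, over 9 means only. A member chosen as high in 1 type must resemble other genes of that type. Every such likeness given here is therefore a description, and no link between the genes is drawn from it.

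Some LPLC1 members were at or near 0 by 96 h APF. CR32652 averaged 13.4 and 1.08 CPM in LPLC1 at 48 and 72 h APF and had no UMI at 96 h APF. CR44363 had 7.06, 6.26 and 1.58 CPM in LPLC1, and at 72 h APF LPLC1 had 84 UMIs of it against none in LC4, at least 33.9-fold more. CR32658, which lies inside Ten-a, averaged 8.98 and 12.2 CPM in LPLC1 at 48 and 72 h APF and had no UMI in any type at 96 h APF. Strain 399 alone had 35.2 CPM of CR32658 at 48 h APF, against 2.09 to 7.28 CPM in the other crosses.

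**Figure D2:**
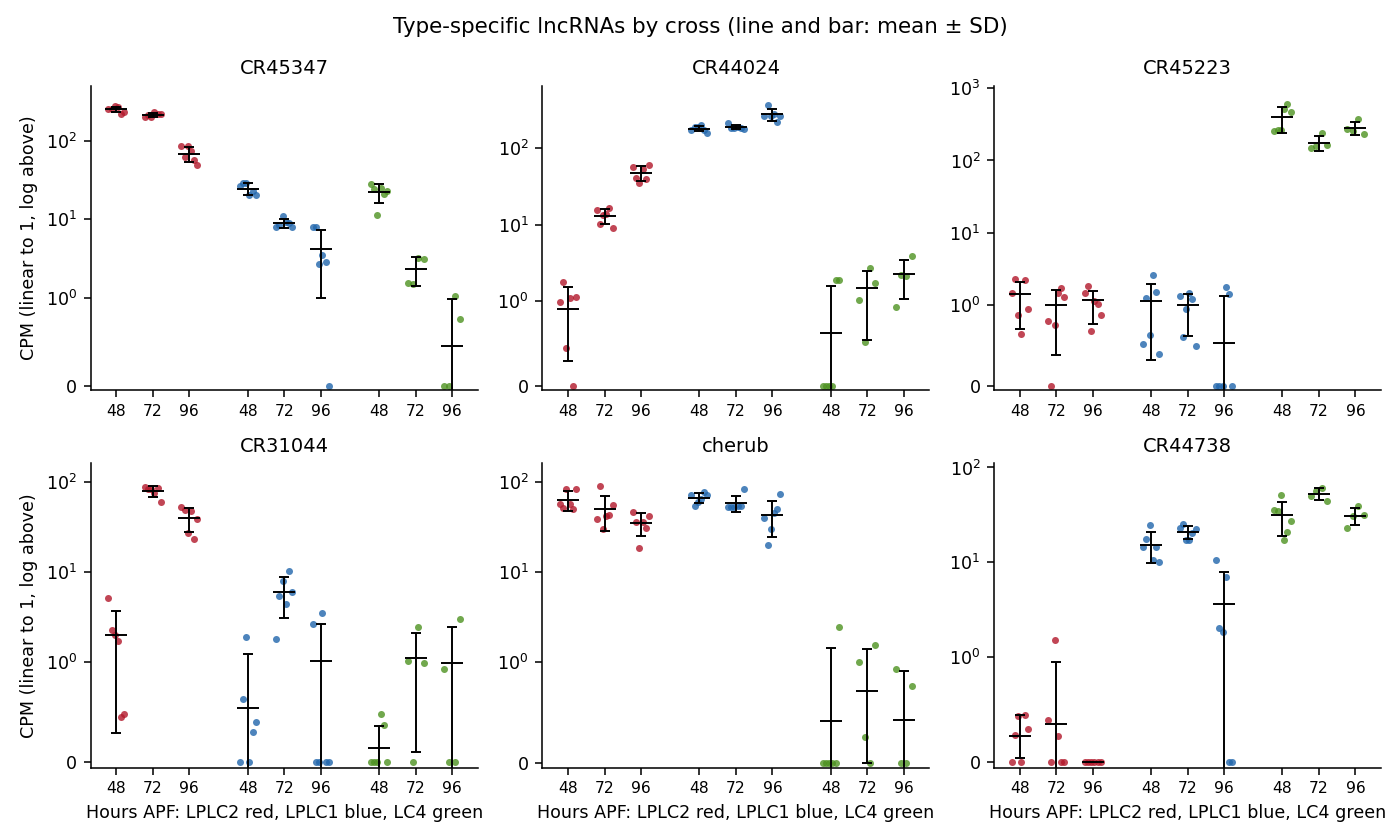
Levels of 6 type-specific members in each cross, in CPM on an axis that is linear to 1 and logarithmic above it, by stage and type (LPLC2, LPLC1, LC4). Points are crosses and bars the mean with its SD. CR45223 lies below 3 CPM in every LPLC2 and LPLC1 cross and at or above 148 CPM in every LC4 cross.

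Among the LC4 members, CR45223 was high at every stage. CR45223 (chr3R:17646903-17653478, minus strand) runs antisense to CG14322 and shares exon sequence with it. It was found in 2.01% of LPLC2 cells and 2.17% of LPLC1 cells at 48 h APF, against 99.5% of LC4 cells. LPLC2 and LPLC1 averaged at most 1.42 CPM at any stage. In LC4 the crosses had 254, 262, 265, 462, 516 and 595 CPM at 48 h APF, 148, 157, 164 and 236 CPM at 72 h APF, and 232, 259, 270 and 371 CPM at 96 h APF. The log2 fold changes of LPLC2 and LPLC1 against LC4 were -8.28 and -8.51 at 48 h APF and -7.44 and -7.32 at 72 h APF. The level of CR45223 went with that of CG14322 (rho 0.75). Over the 9 group means CR45223 was most like the LC4 transcription factor genes lov (Pearson's r 0.999), kn (0.998) and ct (0.996). Its choice as an LC4 member makes a high r with LC4 markers unavoidable.

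CR43199 and CR45533 are neighbours on the X chromosome (chrX:7450383-7452199 and chrX:7445387-7450119, both plus strand, 264 bases apart), and both were LC4 RNAs. CR45533 had no UMI in any LPLC1 sum and averaged 21.8, 11.9 and 3.27 CPM in LC4 at 48, 72 and 96 h APF, so LPLC1 was at least 101-fold, 59.5-fold and 4.11-fold lower. CR43199 averaged at most 0.152 CPM in LPLC2 and LPLC1, and 14.1, 11.3 and 3.54 CPM in LC4. The pair had a rho of 0.88, and the nearest gene, CG11368, had a rho of 0.88 with CR43199 and of 0.83 with CR45533. Both fell with stage, while CR45242 (chr3L:10269482-10270353) and CR45745 (chr3L:10978011-10978302) did the opposite. LPLC2 and LPLC1 had at most 1.65 CPM of either, while in LC4 CR45242 averaged 4.98, 10.3 and 21.4 CPM and CR45745 11.3, 13.1 and 18.4 CPM. The gene nearest to CR45745 is klu, a zinc finger gene 2869 bases upstream (rho 0.64), and its pattern was most like that of Lim3, a LIM homeobox gene of the LC4 markers (Pearson's r 0.99).

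The members low in LC4 at all 3 stages were cherub and CR45237. The lowest, median and highest crosses of cherub (chr3R:11247631-11256123) were 50.2, 57.4 and 84.6 CPM in LPLC2 and 54.5, 68.2 and 77.4 CPM in LPLC1 at 48 h APF, while 5 of the 6 LC4 crosses had none. Its means in LPLC2 were 64.1, 49.9 and 35.1 CPM and in LPLC1 66.8, 58.7 and 43.5 CPM, while LC4 had 4, 14 and 2 UMIs in all. Neuroblast markers (dpn, mira and ase) added up to at most 1.81 CPM in LPLC2 and LPLC1 and 10.2 CPM in LC4, and the part of other cells in the cherub level was not tested. CR45237 had 2.75 to 6.01 CPM in LPLC2 and LPLC1 and 1 UMI in all LC4 sums together. It stayed under the 10% limit in the 3 types and is a member through the class X cells.

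The LC4 level of 3 members faded with stage. CR44997 (chrX:22657324-22797682), found in 99.4% of LPLC1 cells at 48 h APF, averaged 650, 272 and 166 CPM in LPLC2, 1057, 470 and 308 CPM in LPLC1, and 161, 22.8 and 7.05 CPM in LC4 at 48, 72 and 96 h APF. CR46348 had 17.0 to 41.3 CPM in LPLC2 and LPLC1, against 11.3, 4.84 and 0.263 CPM in LC4. CR45224, antisense to SKIP (rho 0.76), was level at 48 h APF with 23.3 CPM in LPLC2, 23.8 CPM in LPLC1 and 24.9 CPM in LC4, and at 96 h APF had 29.3 CPM in LPLC2, 26.8 CPM in LPLC1 and 0.614 CPM in LC4. CR44738 (chr2L:18906124-18906747) was instead missing from LPLC2. It had 6, 9 and 0 UMIs in LPLC2, against 226, 284 and 15 in LPLC1 and 229, 881 and 145 in LC4 at 48, 72 and 96 h APF. CR45706 was low in LPLC2 as well, with 0.587, 1.84 and 0.535 CPM, against 10.7, 13.1 and 21.5 CPM in LPLC1 and 13.5, 5.37 and 6.07 CPM in LC4.

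CR44366 had a pattern of its own among the LPLC1-low members. It averaged 20.7, 3.31 and 9.20 CPM in LPLC2 at 48, 72 and 96 h APF, at most 0.918 CPM in LPLC1, and 22.1, 0.494 and 28.4 CPM in LC4. Both types that held it had less at 72 h APF than at either other stage.

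Stage differences were frequent for all genes. At 72 h over 48 h APF 84 of 122 members differed in LPLC2 (72% of all genes), 49 higher (36.2%) and 35 lower (35.8%). In LPLC1 59 differed (63.5%), 37 higher (32.9%) and 22 lower (30.7%), and in LC4 72 (61.9%), 36 higher (31.2%) and 36 lower (30.8%). At 96 h over 72 h APF 59 differed in LPLC2 (54.5%), 29 higher (28.8%) and 30 lower (25.7%), 55 in LPLC1 (48.7%), 22 higher (22.1%) and 33 lower (26.7%), and 56 in LC4 (45.9%), 31 higher (20.4%) and 25 lower (25.6%). Over all members tested, 45.1% to 68.9% differed at a step. This share lay below that of all genes at every step but LC4 at 96 h over 72 h APF, where both were 45.9%. The gap was widest in LPLC1 at 72 h over 48 h APF, with 48.4% of members against 63.5% of all genes. The changes of members were not smaller. Their median log2 fold change, without its sign, was above that of all genes at every step. It was 0.64 against 0.53 in LPLC1 and 0.94 against 0.62 in LPLC2 at 72 h over 48 h APF. The part of low UMI counts in the share called was not tested.

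**Figure D3:**
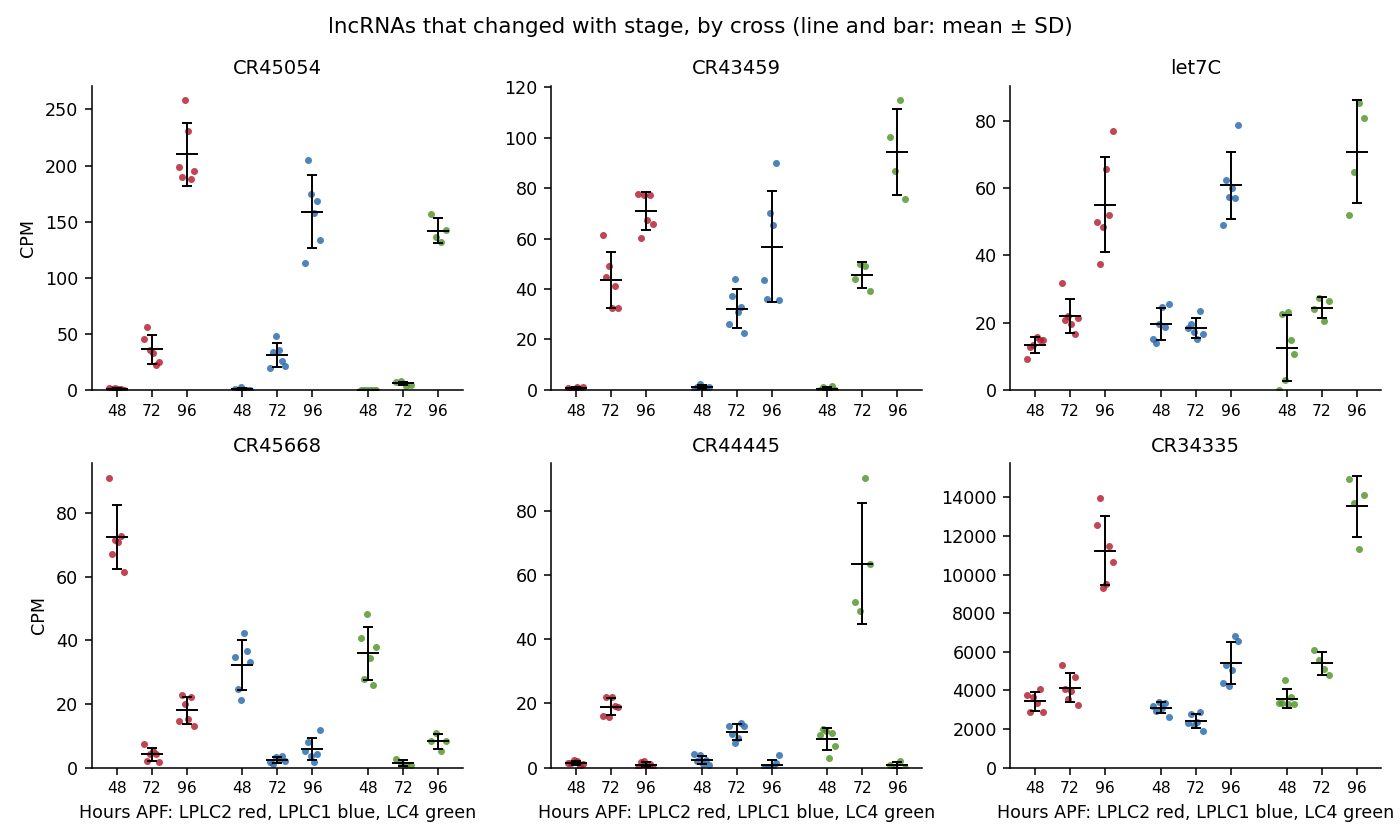
Levels of 6 members in each cross by stage (48, 72, 96 h APF) and type, in CPM on a linear axis. Points are crosses, short lines the mean and bars the SD. CR45054 climbs at each stage, CR44445 is high at 72 h APF and CR45668 at 48 h APF.

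CR45054 and CR43459, 3236 bases apart on 3R, appeared after 48 h APF. CR45054 (chr3R:10083381-10090525) averaged 0.813, 36.2 and 210 CPM in LPLC2, 0.508, 30.8 and 159 CPM in LPLC1, and 0, 5.72 and 142 CPM in LC4 at 48, 72 and 96 h APF. In LC4 the 92 UMIs at 72 h APF against none at 48 h APF made 72 h at least 16.0-fold higher. LC4 lagged at 72 h APF, with 3.92, 4.69, 6.64 and 7.65 CPM in its crosses, and caught up by 96 h APF. CR43459 (chr3R:10093761-10101356) averaged 0.644, 43.6 and 70.9 CPM in LPLC2, 1.11, 32.3 and 56.8 CPM in LPLC1 and 0.518, 45.5 and 94.3 CPM in LC4, and LC4 showed no lag. It ends 64 bases from Fmr1, the gene of the fragile X RNA-binding protein, whose level ran against it (rho -0.63). The 2 lncRNAs had a rho of 0.83 over the 50 sums.

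Others were transient. CR44445 (chr2R:8242396-8243500) averaged 1.47, 18.9 and 0.918 CPM in LPLC2, 2.36, 11.2 and 0.895 CPM in LPLC1, and 63.6 and 0.759 CPM in LC4 at 72 and 96 h APF, where the 48 h crosses lay between 2.91 and 11.9 CPM. Its 72 h crosses did not overlap those of 48 and 96 h APF in any type. CR45668 (chrX:5882480-5899989), antisense to CG16721, was the reverse, with 72.4, 4.17 and 18.0 CPM in LPLC2, 32.1, 2.36 and 5.81 CPM in LPLC1, and 35.9, 1.42 and 8.24 CPM in LC4. In LC4, CR44628 averaged 6.89, 37.2 and 67.2 CPM and so climbed at each stage, while CR43148 averaged 9.41, 20.1 and 0.191 CPM and CR44978 26.4, 9.98 and 4.19 CPM.

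The transcript let7C (chr2L:18455717-18473132, plus strand, antisense to CG10283) rose at the last step in every type. In LPLC2 its lowest, median and highest crosses were 9.08, 14.0 and 15.8 CPM at 48 h APF, 16.7, 21.1 and 31.7 CPM at 72 h APF, and 37.4, 50.9 and 77.0 CPM at 96 h APF. The stages did not overlap in LPLC2. At 96 h over 72 h APF the log2 fold change of let7C was 1.15 in LPLC2, 1.48 in LPLC1 and 1.41 in LC4 (SE 0.18, 0.22 and 0.21, adjusted p = 3.7e-07, 1.0e-07 and 1.7e-07). At 72 h over 48 h APF it was 0.80 in LPLC2 (adjusted p = 1.5e-04) and 0.70 in LC4 (adjusted p = 7.7e-03, crosses overlapping), and LPLC1 had 18.4 ± 2.97 CPM at 72 h APF against 19.6 ± 4.79 CPM at 48 h APF. The UMIs count the primary transcript, not the mature microRNAs.

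A list of 12 temporal and ecdysone-response genes was followed at 96 h over 72 h APF. In LPLC2 3 rose (28.8% of all genes) and 6 fell (25.7%). In LPLC1 3 rose (22.1%) and 7 fell (26.7%), and in LC4 3 rose (20.4%) and 5 fell (25.6%). The genes chinmo, a temporal transcription factor gene that let-7 is known to repress, and ab, another known let-7 target, moved in opposite directions. At 96 h over 72 h APF chinmo rose with log2 fold changes of 0.48, 0.93 and 1.10 in LPLC2, LPLC1 and LC4, while ab fell by 0.87, 1.13 and 1.01 on the log2 scale. The median log2 fold change of the list was -0.38 in LPLC2, -0.55 in LPLC1 and -0.17 in LC4, against 0.04, -0.04 and -0.06 for all genes tested.

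Hsromega (chr3R:21296127-21317836, plus strand) was found in 99.7% to 100% of the cells of each group. Its mean level was 5977, 5406 and 4673 CPM in LPLC2, 4800, 5411 and 5814 CPM in LPLC1, and 5198, 5244 and 8063 CPM in LC4 at 48, 72 and 96 h APF. The means at 48 h APF hold other strains than the later ones. In LPLC2 strain 555, present at 48 h APF only, was the highest there with 7763 CPM. Strain 320, present only at 72 and 96 h APF, was the lowest LPLC2 cross with 3635 and 3143 CPM. The part of the strains in the change after 48 h APF was not tested. The types drew apart at the last stage. At 96 h APF the LPLC2 crosses lay between 3143 and 5932 CPM and the LPLC1 crosses between 4161 and 7100 CPM, all below the 4 LC4 crosses with 7768, 7990, 8211 and 8282 CPM. The log2 fold change against LC4 was -0.90 for LPLC2 (SE 0.16, adjusted p = 7.8e-06) and -0.60 for LPLC1 (SE 0.17, adjusted p = 2.9e-03). Between 72 and 96 h APF Hsromega rose in LC4 (log2 fold change 0.51, adjusted p = 0.018) and fell in LPLC2 (-0.36, adjusted p = 0.040, with overlapping crosses).

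A list of 13 heat shock genes, of which 12 were tested, was set beside Hsromega. At 96 h APF 3 of the 12 were higher (27.1% of all genes) and 1 lower (22.5%) in LPLC2 than in LC4. In LPLC1 3 were higher (18.4%) and 2 lower (19.4%) than in LC4. In LC4 all 12 fell between 48 and 72 h APF (30.8% of all genes), with a median log2 fold change of -1.05 against 0.01 for all genes. Among them the small heat shock gene Hsp23 fell by 2.49 on the log2 scale. The mean level of Hsromega in LC4 was 5244 CPM at 72 h APF and 5198 CPM at 48 h APF. A second list held 7 genes for proteins of the omega speckles and related RNA-binding proteins. At 96 h APF 3 of the 7 were higher (27.1% of all genes) and 2 lower (22.5%) in LPLC2 than in LC4. In LPLC1 0 were higher (18.4%) and 4 lower (19.4%) than in LC4.

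The alphagamma-element (chr3R:12475336-12478267, minus strand), 7560 bases from Hsp70Ba, averaged 196, 343 and 403 CPM in LPLC2, 197, 385 and 301 CPM in LPLC1, and 275, 276 and 309 CPM in LC4. It rose between 48 and 72 h APF in LPLC2 (log2 fold change 0.87, adjusted p = 0.017) and in LPLC1 (1.04, adjusted p = 6.0e-03). At 48 h APF strain 555 had 627 CPM in LPLC1, against 88.4 to 138 CPM in the other crosses. It had 748 CPM in LC4 (12 cells), against 54.6 to 324 CPM, but 230 CPM in LPLC2, within the range of the others. The 48 h means, such as 275 CPM in LC4, include strain 555, which was absent at 72 and 96 h APF. Its part in the course of these means was not tested. The summed level of Hsp70 genes in the same LPLC1 cross was 263 CPM, within the range of 228 to 291 CPM of the 6 crosses.

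The question whether LPLC2 and LPLC1 changed differently over time was asked with the difference between their changes at 96 h over 48 h APF. It passed the threshold for 26 of 122 members , against 21.5% of all genes. In 19 the change was more positive in LPLC2 (13.9% of all genes) and in 7 more negative (7.57%). CR44024 had the smallest adjusted p, with a difference of 4.92 on the log2 scale (SE 0.28, adjusted p = 5.4e-20). This difference contains the 48 h fold between the types by which CR44024 was chosen, so its p is not independent of that choice. CR45333 averaged 37.6, 41.4 and 54.7 CPM in LPLC2 and 94.5, 38.7 and 24.2 CPM in LPLC1 at 48, 72 and 96 h APF, a difference of 2.46 (SE 0.21, adjusted p = 1.8e-13), and its neighbour CR45332, which lies 87 bases away, averaged 33.7, 65.3 and 80.9 CPM in LPLC2 and 83.3, 72.6 and 42.5 CPM in LPLC1. Both RNAs were thus higher in LPLC1 at 48 h APF and higher in LPLC2 at 96 h APF. For Hsromega the difference was -0.64 (SE 0.21, adjusted p = 0.024), which no longer passed without strain 399, 535 or 799. For CR46003 it was -2.54 (adjusted p = 0.043) and became 0.051 without strain 799, whose LPLC1 sum at 96 h APF had 62.9 CPM against at most 3.98 CPM in the other crosses.

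Strains differed in the level of 24 of 122 members (F test over strains, with type and stage in the model), against 12.8% of all genes. The crosses differ in the third chromosome. Among members on it 16 of 50 were called (18.4% of all genes on it), and 8 of 72 among members elsewhere (8.48% of all genes elsewhere). Hsromega had an adjusted p of 2.6e-08. In LPLC2 at 72 h APF it had 3635, 5115 and 4510 CPM in strains 320, 399 and 535, against 6187, 7165 and 5823 CPM in strains 730, 799 and 805, and at 96 h APF 3143, 4054 and 4638 CPM against 5099, 5174 and 5932 CPM. The strains collected first and last did not overlap at these stages in LPLC2, and did overlap at 48 h APF, where strain 555 had the highest value (7763 CPM).

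CR45223 differed by strain as well (adjusted p = 1.2e-06). In LC4 at 48 h APF it had 254, 265 and 262 CPM in strains 399, 535 and 555, against 516, 595 and 462 CPM in strains 730, 799 and 805. At 72 h APF it had 148 and 157 CPM in strains 399 and 535, against 236 and 164 CPM in strains 799 and 805, and at 96 h APF 270 and 259 CPM against 371 and 232 CPM, so that both sets of strains overlapped at 96 h APF. For CR44050, inside pHCl-1 on 3L, the adjusted p was 6.2e-09. It had 62.7 CPM in LPLC2 and 42.7 CPM in LC4 in strain 555 at 48 h APF, against at most 19.4 and 9.22 CPM in the other crosses, and without strain 555 the adjusted p was 0.61.

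The next comparison followed the members along PC1, the main axis of variation among cells of 1 type. Within a cross, cells were ranked on a PC1 score that contained neither the tested gene's own set of genes nor loadings learned from that cross and split into 3 equal groups, and UMIs were summed over the group with the highest scores (the high end) and the group with the lowest (the low end). The high end is the one with more dpr13 in LPLC2 and more DIP-kappa in LPLC1, both genes of cell surface receptors. The ends are ranges of a continuous score and not types, and 218, 131 and 76 of the 1442, 994 and 474 LPLC2 cells lay near a boundary at 48, 72 and 96 h APF. PC1 was found anew at each stage. In LPLC2 the scores from separate sets of genes agreed less at 48 h APF (Spearman's rho 0.76 to 0.82 over crosses) than at 72 and 96 h APF (0.97 to 0.98 at each). Sizes of PC1 folds therefore cannot be compared between stages. In LPLC2 27 of 69 tested members differed between the ends at 48 h APF (against 29% of all genes), 41 of 50 at 72 h APF (against 52.6%) and 25 of 36 at 96 h APF (against 54.6%). In LPLC1 13 of 42 (against 21.5%), 22 of 39 (against 32.9%) and 11 of 21 (against 33%, over 5 crosses) differed.

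CR31044, an LPLC2 RNA, was one of the low end. At 72 h APF its lowest, median and highest crosses were 0, 1.39 and 2.74 CPM at the high end, against 145, 179 and 221 CPM at the low end (log2 fold change -6.77, SE 0.19, adjusted p = 4.3e-18). At 96 h APF CR31044 had no UMI at the high end in any of the 6 crosses and 111 ± 38.1 CPM (SD) at the low end. No cross overlapped between the ends at either stage.

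CR46006 (chr3L:10323501-10367450) marked the other end of LPLC2. It averaged 341 CPM at the high end against 138 CPM at the low end at 48 h APF, 233 against 50.2 CPM at 72 h APF, and 1034 against 60.9 CPM at 96 h APF. All 6 crosses were higher at the high end at each stage, and the log2 fold changes were 1.19, 2.18 and 4.11 (SE 0.08, 0.13 and 0.12, adjusted p = 3.1e-12, 1.3e-11 and 6.9e-22). In LPLC1 CR46006 had 251 CPM at the high end against 173 CPM at the low end at 48 h APF (0.52, adjusted p = 5.5e-04), while at 72 and 96 h APF the log2 fold changes were 0.22 and 0.18 (SE 0.12 and 0.22, adjusted p = 0.17 and 0.57). CR44320, which shares exon sequence with CG12290, was also higher at the high end of LPLC2, with 45.7 against 4.65 CPM at 72 h APF (log2 fold change 3.30). CR43242 had 39.3 against 1.05 CPM at 96 h APF (4.71, SE 0.48).

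**Figure D4:**
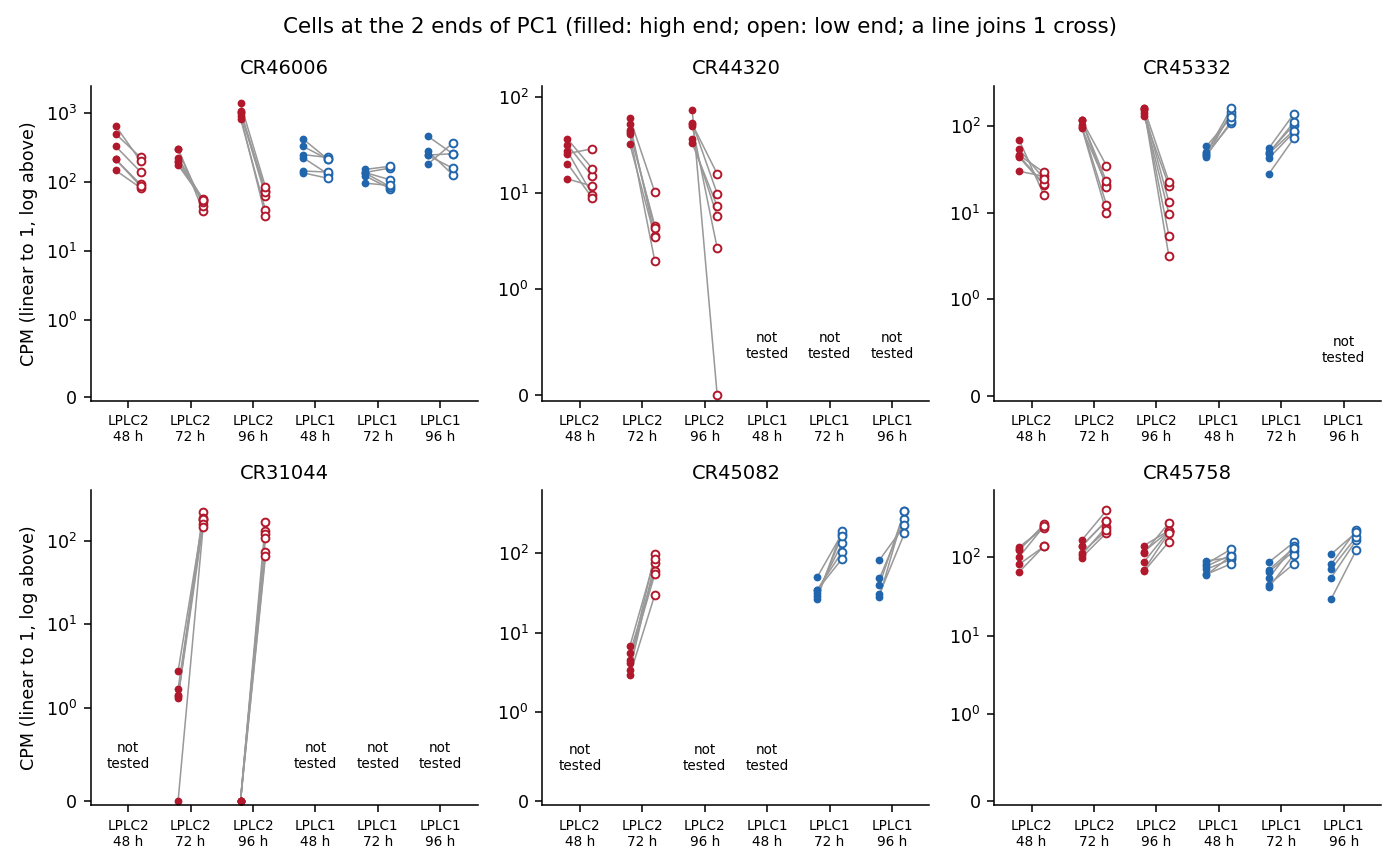
Levels of 6 members in each cross at the high end (filled points) and the low end (open points) of PC1, in CPM, in LPLC2 and LPLC1 at 48, 72 and 96 h APF. The axis is linear to 1 CPM and logarithmic above it, lines join both ends of a cross, and groups in which a member had too few UMIs are marked as not tested. In LPLC2 the high end of CR46006 lies above the low end in all crosses, and for CR45332 the high end lies above the low end in LPLC2 and below it in LPLC1.

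The neighbours CR45332 (chr2L:17901807-17902691) and CR45333 (chr2L:17902778-17903073), both on the minus strand, ran in opposite directions in LPLC2 and LPLC1. In LPLC2 CR45332 averaged 48.0 CPM at the high end against 22.9 CPM at the low end at 48 h APF, 107 against 20.2 CPM at 72 h APF and 150 against 12.4 CPM at 96 h APF. In LPLC1 it averaged 48.8 against 131 CPM at 48 h APF and 45.2 against 98.9 CPM at 72 h APF. Every one of the 6 crosses followed these directions. CR45333 did the same, with log2 fold changes of 0.70, 2.91 and 3.33 in LPLC2 and of -1.44 and -1.10 in LPLC1 at 48 and 72 h APF. The sign of PC1 in each type was set by a single gene, so the directions in the 2 types refer to dpr13 and DIP-kappa.

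Other members went to the low end in both types. CR45758 (chr3L:22960930-22961668) was lower at the high end in LPLC2 at all stages, with 105 against 212 CPM, 126 against 275 CPM and 98.7 against 214 CPM, and in LPLC1, with 73.2 against 102 CPM, 59.8 against 122 CPM and 68.9 against 179 CPM. CR45082 (chrX:21496526-21520017) had 4.55 against 66.8 CPM in LPLC2 at 72 h APF (log2 fold change -3.97, SE 0.19), and in LPLC1 34.2 against 142 CPM at 72 h APF (-2.06) and 45.8 against 268 CPM at 96 h APF (-2.61). CR43363 had 9.30 against 74.7 CPM in LPLC2 and 15.5 against 49.0 CPM in LPLC1 at 72 h APF. The abundant RNA noe was lower at the high end in LPLC2 at the 3 stages (log2 fold changes -0.34, -0.28 and -0.53), and CR34335 had 7120 against 14969 CPM in LPLC2 at 96 h APF.

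CR44024, the LPLC1 RNA that appeared in LPLC2 with time, sat at the low end of LPLC2, with 5.28 against 21.5 CPM at 72 h APF and 19.2 against 77.9 CPM at 96 h APF (log2 fold changes -2.22 and -2.04, adjusted p = 3.7e-07 and 5.1e-09). In LPLC1 it was higher at the high end at 48 h APF, with 220 against 162 CPM (0.52, adjusted p = 3.4e-03), a call that was lost without the cross as a block. CR45054, which appeared after 48 h APF, was higher at the high end in LPLC2 at 72 h APF (54.0 against 23.7 CPM) and 96 h APF (271 against 160 CPM) and in LPLC1 at 72 h APF (43.1 against 22.2 CPM).

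Male and female cells were told apart by the roX RNAs, of which a male cell had 5 or more UMIs and a female cell 1 or fewer. At 48, 72 and 96 h APF 1112, 1052 and 431 cells were male and 1344, 1070 and 468 female, and 61, 122 and 14 cells in between were left out. Over 44 pairs of male and female sums from the same cross, type and stage, 16 of 54 tested members differed, against 13.1% of all genes. On the X chromosome 9 of 12 members were lower in male cells and 0 higher, against 23% lower and 14.4% higher of all X genes. On the other chromosomes 7 of 42 were higher in male cells and 0 lower, against 5.47% higher and 2.36% lower of all other genes.

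**Figure D5:**
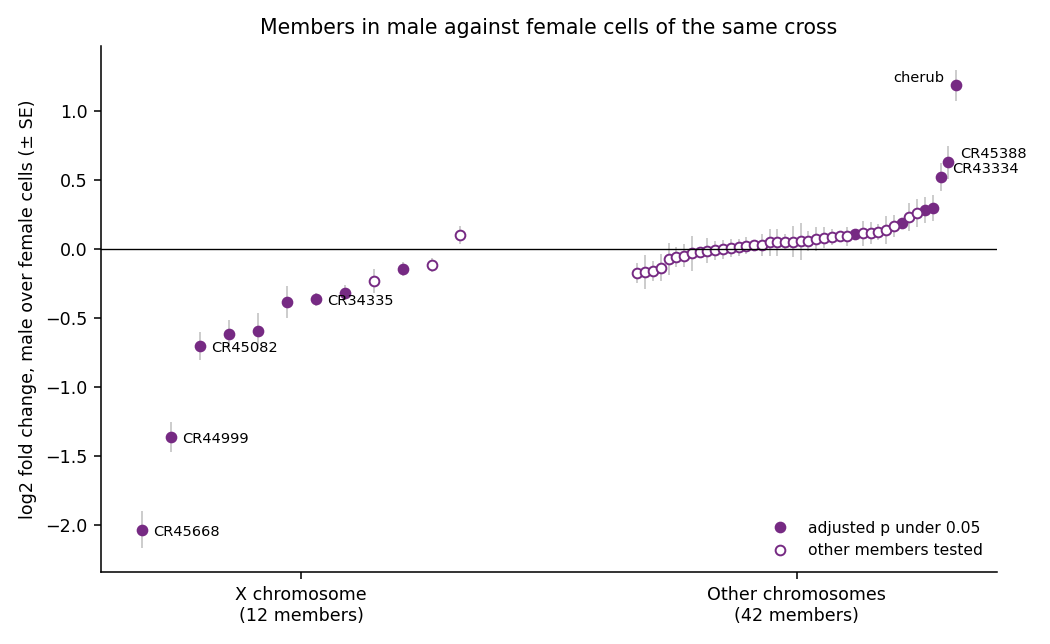
Log2 fold change of male over female cells with its SE for the 54 tested members, 12 on the X chromosome and 42 on other chromosomes. The X members lie mostly below 0, and cherub at 1.18 has the most positive value outside the X.

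On the third chromosome cherub averaged 57.1 CPM in male cells and 24.3 CPM in female cells (log2 fold change 1.18, SE 0.11, adjusted p = 9.8e-12), and was higher in the male cells of 34 of 44 pairs and lower in 5. CR45388 had 10.6 CPM in male cells and 6.77 CPM in female cells (0.63, SE 0.12, adjusted p = 1.0e-04), and CR43334 32.5 and 21.6 CPM (0.52, SE 0.10, adjusted p = 1.7e-04). When the pairs were not used as a block, 2 members were called, CR45668 and CR44999, and the calls on cherub, CR45388, CR43334 and all others were lost.

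On the X, CR45668 averaged 7.64 CPM in male cells and 31.6 CPM in female cells (log2 fold change -2.03, SE 0.13, adjusted p = 3.2e-18), lower in 39 of 44 pairs. CR44999, which shares exon sequence with Myc, had 8.50 CPM in male cells and 23.4 CPM in female cells (-1.36, SE 0.11), and CR45082 30.7 and 47.1 CPM (-0.71, SE 0.10, a call lost without the block). With the block, CR34335 was lower in male cells as well, with 4784 against 6020 CPM (-0.36, SE 0.05, adjusted p = 2.5e-08). Among members off the X, and again with the block, noe had 70349 CPM in male cells and 63164 CPM in female cells (0.19, SE 0.04, adjusted p = 1.3e-04).

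Levels of members and of nearby coding genes were compared over the 50 sums as a description, since all sums share 3 libraries and 3 types. The median rho was 0.30 over 47 pairs that overlap on the same strand, 0.25 over 48 pairs on opposite strands and 0.12 over 119 pairs with the next coding gene upstream. CR44999 went with Myc (rho 0.72), the growth regulator whose exons it shares, and CR45102, which starts 185 bases downstream of Mnt, the gene of the partner protein that opposes Myc, went with Mnt (0.75). CR44320 had a rho of 0.70 with CG12290. For overlapping or adjoining genes, reads of both cannot be told apart by these counts.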

How the data were processed

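Cells of 3 neuron types at 3 stages were sequenced by the authors as droplet 3′ libraries, processed with Cell Ranger against the fly genome (dm6) and FlyBase genes, assigned to crosses by genotype, and clustered with Seurat 5.0.1. The deposited tables hold UMI counts per gene and cell, not normalised, and the metadata hold the authors' type, strain and stage, with the mitochondrial share as a percent of UMIs as deposited. Whether intronic reads or strand were used in counting is not given in the sources used here. The final cells held 5003 to 49322 UMIs, and 2286, 2043 and 858 of 2595, 2369 and 1039 cells fall within the stated filter of 10000 to 50000 UMIs and at most 10% mitochondrial UMIs. All final cells were kept, doublets between crosses had been marked by the authors' genotype calls and no caller was run here, and class X cells (78, 125 and 126) entered only the choice of members.

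Here UMIs were summed per cross, type and stage and fitted in edgeR 4.0.16 (R 4.3.3) by the quasi-likelihood test with TMM scaling and its default filter on low counts, with 1 mean per group of type and stage. Benjamini-Hochberg adjustment ran over all genes tested in a comparison. These were 7011 for type, stage and strain, 2453 to 5470 for PC1 and 5148 for sex. Every adjusted p in the text comes from edgeR. Strain was tested by an F test, and PC1 ends and sexes with the cross as a block. Crosses are pools of animals, so p-values measure the spread between crosses. The tests were run on simulated counts as well. Changes were placed there only in genes with enough UMIs, so members with few or no UMIs in a group were not covered. Alternatives were DESeq2 1.42.0, other scaling and filters, cells thinned to 10000 UMIs, strain blocks and leaving out each strain. Intervals and floors (3 counts) cover counting error only.

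The members, lists and markers were chosen with earlier results of these data known. Named members have a name other than a CR number, the highest levels, or, past an adjusted p of 0.05, the largest changes per comparison (3 per direction with crosses that did not overlap, 2 for PC1, 3 for sex) or the 3 smallest p for strain, or are type-specific by 4-fold. A few others were named after their values were seen. Positions come from the Ensembl annotation of Release 6. Promoter and transcript sequences were not analysed here.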

Additional observations from a re-analysis of the deposited data

Results flagged for a closer look

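A cross far from the others of its group was looked for in 248 groups of member, type and stage by Dixon's criterion, and 16 were found. Chance flags about 1 in 20 groups. In 7 of the 16 the cross was strain 555 at 48 h APF, whose LC4 sum held 12 cells. These were CR44050 with 62.7 CPM in LPLC2 (nearest cross 19.4 CPM) and 42.7 CPM in LC4 (9.22 CPM), CR44320 with 59.7 CPM in LC4 (27.9 CPM), CR34335 with 4519 CPM in LC4 (3672 CPM), CR46348 with 51.9 CPM in LPLC1 (35.5 CPM), Hsromega with 6198 CPM in LPLC1 (4836 CPM) and the alphagamma-element with 627 CPM in LPLC1 (138 CPM). The part of strain, age and cell number in these values was not tested.

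At 48 h APF strain 399 had 30.5 CPM of CR46348 in LC4 (11.3 CPM; the strain 399 sum held 14 cells) and the lowest CR45102 in LPLC1 with 23.3 CPM (32.9 CPM), and strain 799 had 79.6 CPM of CR44999 in LPLC2 (58.7 CPM). At 72 h APF strain 320 had 216 CPM of CR44024 in LPLC1 (188.9 CPM) and 31.7 CPM of let7C in LPLC2 (21.8 CPM), strain 805 had 84.0 CPM of cherub in LPLC1 (55.0 CPM), and strain 399 had the lowest CR45533 in LC4 with 7.66 CPM. At 96 h APF strain 535 had 48.1 CPM of CR45758 in LC4 (27.9 CPM) and strain 799 had 62.9 CPM of CR46003 in LPLC1 (3.98 CPM).

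The change at 96 h over 48 h APF differed between LPLC2 and LPLC1, by the test of the difference itself, for 14 of the named members. Of these, 7 lost the call under at least 1 alternative. On the log2 scale, LPLC2 minus LPLC1, the difference was 7.40 for CR32652 (SE 2.54), 4.92 for CR44024, 3.59 for CR31044 (SE 1.29), 2.46 for CR45333, 2.44 for CR45312, 1.87 for CR44320, 1.01 for CR43363, 0.91 for CR46348, 0.89 for CR34335 and 0.54 for CR31451. It was -0.53 for CR42862, -0.64 for Hsromega, -1.77 for CR44999 and -2.54 for CR46003. CR32652 had no UMI in LPLC1 at 96 h APF, so its fitted value is no measure of size, and its call was lost in 8 of 13 alternatives, the strain block among them. The call was lost in 5 of 14 alternatives for CR31044, in 4 for CR44320, in 3 each for Hsromega and CR46003, which also reversed in 1, and in 2 each for CR43363 and CR46348.

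The class X cells enter no comparison, and 17 members reached 10% only there. CR44317 was found in 32.1%, 24.0% and 39.7% of the 78, 125 and 126 X cells at 48, 72 and 96 h APF (95% exact binomial interval at 96 h APF 31.1% to 48.8%), and in at most 3.12% of the cells of any other group. CR46349 was found in 11.5%, 9.60% and 6.35% of X cells and had no UMI in LPLC2, LPLC1 or LC4. CR45825 was found in 14.1%, 13.6% and 13.5% of X cells and in at most 0.211% elsewhere.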

How the results depend on the processing

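Of 136 results on named members, 120 kept call and direction under every alternative run and 16 lost a call under at least 1. Most of these results were named for passing the threshold with the largest changes. That choice favours their being kept, so the share does not stand for all members. Over 1890 values the call was kept in 1845 and lost in 44, and 1 reversed, the CR46003 difference in change between LPLC2 and LPLC1, which ranged over -2.93 to 0.051 when 1 strain was left out (0.051 without strain 799). At 5% detection the members numbered 249. Counts of members called moved by over 1.5 times as follows. With only the compared groups in the fit, 21 differed between LPLC2 and LPLC1 and 34 between LPLC1 and LC4 at 96 h APF. With thinned cells, 36 changed in LPLC1 and 36 in LC4 at 96 h over 72 h APF, 17 differed in change between types and 14 by strain. With no filter, 40 differed by strain and 46 along PC1 in LPLC2 at 96 h APF, and 24, 37 and 19 along PC1 in LPLC1 at 48, 72 and 96 h APF. DESeq2 called 7 at 48 h and 7 at 96 h APF along PC1 in LPLC1.

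Leaving out 1 strain at a time gave 29 to 44 between LPLC2 and LPLC1 at 96 h APF, 19 to 25 for the difference in change, 16 to 26 for strain and 12 to 16 for sex. Without the replicate block of crosses, 5 and 7 members were called along PC1 in LPLC1 at 48 and 96 h APF and 2 between sexes. Same-strain sums came from separate crosses. Their deviations correlated over 0.1 in 44 of 46 pairs of types within a stage (median r 0.28) and in 18 of 30 pairs of stages, and since not every pair did, the strain number was not taken as pairing. With strain as a replicate block the counts stayed within 1.5 times, for example 56 between LPLC2 and LPLC1 at 48 h APF, and among named members only CR32652 lost a call, on its difference in change. The causes of these shifts were not tested. Small sums limit the LC4 values of strains 555 (12 cells) and 399 (14 cells) at 48 h APF and the LPLC1 values of strain 805 at 96 h APF (14 cells).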
